A study of Mus musculus with 8 samples.

Results

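SWI/SNF complexes are chromatin remodellers that use ATP to slide or evict nucleosomes. The 10 genes described here encode most of the core of the BAF form of the complex: the alternative ATPases Smarca2 (BRM) and Smarca4 (BRG1), the core subunits Smarcb1, Smarcc1 and Smarcc2, the alternative BAF60 subunits Smarcd1, Smarcd2 and Smarcd3, and the alternative DNA-binding subunits Arid1a and Arid1b. They were chosen by gene symbol, 10 of 23115, 22923 and 22777 loci that carry a symbol in the female, male and KI tables. A complex carries a single ATPase, a single BAF60 protein and a single ARID1 protein, so paralogues compete for a position. In muscle, Smarcd3 (BAF60c) is the variant known to bind the myogenic factor MyoD at muscle genes and to bring in a BRG1-containing complex when differentiation starts.

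RNA was sequenced from primary mouse myoblasts, cells that grow out of muscle satellite cells, of B6/129 mice. Female UTX knockout (KO) cells carried a UTX-Floxed allele with the tamoxifen-dependent Pax7-CreER driver and a Cre-dependent Rosa26-Floxed-TdTomato reporter, and female wild type (WT) cells carried driver and reporter only. No genotype is given in the labels for male KO and male WT cells, nor for female KI and female Ctrl-KI cells, and no label says what allele KI carried. All groups were sorted for the reporter, grown with 20% serum, 2.5 ng/mL FGF and 2.5 µM 4-hydroxytamoxifen, and differentiated for 24 h. In female KO cells, where the driver is named, deletion depends on Pax7-driven Cre. Cells in which Cre did not act at Kdm6a, the X-linked gene of the histone demethylase UTX, cannot be told apart in the bulk RNA.

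The 8 libraries gave 6 columns of FPKM, fragments per kilobase of transcript scaled to the number of mapped fragments, in 3 separately estimated tables. Female KO, female WT, male KO and male WT were 1 library each, and KI and Ctrl-KI were each given as 1 value for 2 libraries. No column therefore has a replicate value, and the deposited confidence bounds are the only error of a single column. Kdm6a was 16.9 FPKM in female KO and 20.8 in female WT cells, 2.08 in male KO and 7.87 in male WT cells, and 13.2 in KI and 12.8 in Ctrl-KI cells. These values cover the whole gene, so they check the deletion only weakly. All 10 genes had status OK in every column and at least 4.10 FPKM. Differences are given as log2((FPKM + 1)/(FPKM + 1)), mutant over control, formed within a table. Genes with at least 1 FPKM in 1 column were kept, 12344 in the female, 11440 in the male and 11084 in the KI table, and all 10 members were among them in each.

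Smarcd3 stood apart from the other members. It was the most highly expressed of the 10 genes in all 6 columns and had the lowest mutant-to-control ratio of the 10 in all 3 tables. The gene was 34.4 FPKM in female KO cells (deposited interval 16.1 to 52.6), against 77.0 FPKM in female WT cells (36.3 to 118). In males Smarcd3 was 62.6 FPKM in KO cells (17.3 to 108), against 89.3 FPKM in WT cells (25.5 to 153). The KI comparison gave 72.4 FPKM in KI cells (55.4 to 89.3), against 97.2 FPKM in Ctrl-KI cells (76.0 to 118). The mutant value was thus the lower one each time, at 44.7%, 70.1% and 74.4% of the control, and each pair of intervals overlapped. Of 9727 genes kept in all 3 tables, 31.1% likewise lay below control in each. Its log2 ratio was -1.14 in females, -0.51 in males and -0.42 in KI cells. A ratio lower than that of Smarcd3 was found for 2.62% of all genes kept in females, 16.4% in males and 6.84% in KI cells.

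**Figure D1:**
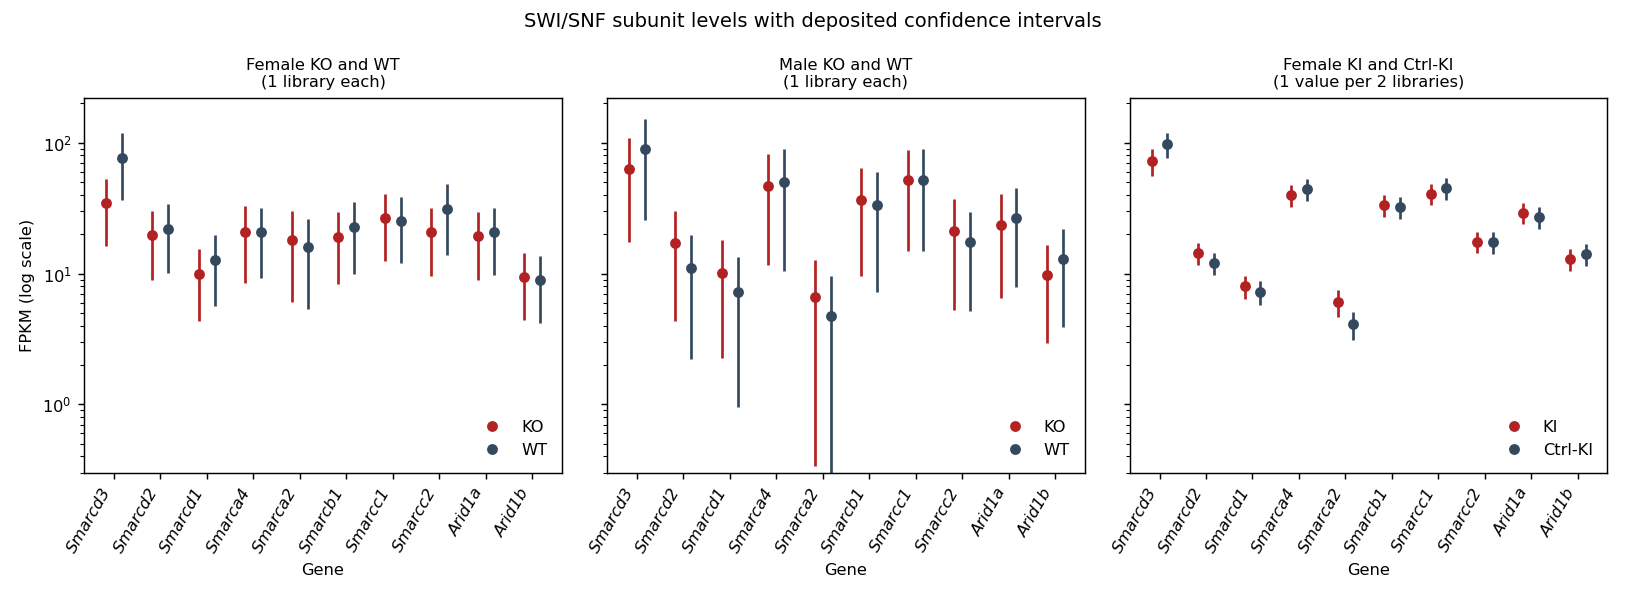
FPKM (log axis) of the 10 SWI/SNF genes in the female, male and KI tables, with the mutant column (KO or KI) left of its control (WT or Ctrl-KI). Points are deposited values and lines deposited confidence intervals (the lower bound of Smarca2 in male WT cells is 0 and runs off the axis). Smarcd3 is the highest gene in every column, and every mutant interval overlaps its control interval.

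Against the same cut-off for all genes, 1 of the 10 members, Smarcd3 itself, passed 2-fold downward between female KO and female WT cells, as 4.40% of all genes did. With TPM, FPKM rescaled to a fixed column sum, over loci with a symbol, or over all loci, its female log2 ratio was -0.98, and 0 of 10 members passed. Among the same ratios 0 of 10 were at least 2-fold higher, where 4.49% of all genes were. Among males 0 of 10 members were 2-fold lower and 0 of 10 were 2-fold higher, with 6.47% and 9.90% of all genes past those limits. In KI against Ctrl-KI cells the member counts were again 0 of 10 lower and 0 of 10 higher, with 0.893% and 3.86% of all genes. Deposited intervals overlapped in all 30 pairs of a member and a table, while they were apart for 0.899% of all genes among females, 0.865% among males and 12.0% between KI and Ctrl-KI. The member counts are too small to be set apart from these shares.

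The female and male ratios were then taken as 2 measurements of the KO effect, and limma was fitted to 10482 genes kept in both tables. Smarcd3 averaged -0.82 ± 0.25 on the log2 scale (moderated SE, n = 2 ratios), with an unadjusted p of 0.0179 and a Benjamini-Hochberg adjusted p of 0.164 in limma. Over 10 alternative settings of this limma fit the adjusted p of Smarcd3 lay between 0.148 and 0.844. None of the 10 members passed an adjusted p of 0.05, and 0% of all genes did in either direction, while 2079 genes had an unadjusted p under 0.05 in limma. Over all genes this count of calls depended on the setting: with a minimum of 5 FPKM limma called 42 genes higher and 88 lower, and with TPM over all loci 52 higher and 93 lower, with none of the members among them. The other 9 members had adjusted limma p-values of 0.570 (Smarca2) or more. With 1 residual degree of freedom the SE borrows most of its spread from other genes, so it is not the difference between the sexes.

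Marker lists of the cells differed between mutant and control as well. All 4 satellite cell markers were kept in every table, with medians of -0.65, -0.71 and -0.29 in the female, male and KI comparisons. Pax7, which defines satellite cells and drives the Cre named for female KO and WT cells, went against these medians in both sexes. It was 5.54 FPKM in female KO and 4.33 in female WT cells, and 16.3 in male KO and 5.82 in male WT cells. The Pax7 ratio was past 2-fold in males (1.34). Between KI and Ctrl-KI cells Myf5, a myogenic regulatory factor, was the 1 of 4 with a higher value (0.50). The 10 markers of differentiating myoblasts were all present in the WT libraries apart from Myh3, which is merged with Myh4 and was not estimated in male WT cells. All 10 lay lower in female KO than in female WT cells (median log2 ratio -1.08), all 9 kept in males lay lower in KO (median -2.37), and 8 of 10 lay lower in KI than in Ctrl-KI cells (median -0.19). Ckm, the muscle creatine kinase, had the lowest ratio of the list in both sexes (-2.81 in females, -3.83 in males), and Myod1 had the lowest in KI cells (-0.55). Smarcd3 had a ratio close to that median in females a smaller difference than that median in males, and a larger one than that median in KI cells. Of 8 markers of cycling cells, 7 of 8 lay higher in female KO, 8 of 8 in male KO and 4 of 6 kept in KI cells, with medians of 0.79, 2.06 and 0.19. Among the 2 lower loci in KI cells, Birc5 is merged with Afmid and Syngr2.

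Genes listed as markers of other cell types were mostly higher in the mutant columns as well, although all groups had been sorted for the reporter. The labels name the Pax7-CreER driver for female KO and female WT cells only. Listed genes need not be exclusive to those cells, and Cd34, for example, is also known from satellite cells. The 8 fibro-adipogenic markers summed to 567 FPKM in female KO and 235 in female WT cells, 93.8 in male KO and 19.1 in male WT cells, and 314 in KI and 9.998 in Ctrl-KI cells. All 7, 5 and 7 kept markers of this list were higher in the mutant, with the highest ratio for Pdgfra in females (2.09), Thy1 in males (4.22) and Col1a1 in KI cells (6.72), and Lum was listed at 0 in both male columns and in Ctrl-KI cells. The 8 endothelial markers summed to 31.2 FPKM in female KO and 18.1 in female WT cells, 70.2 in male KO and 1.35 in male WT cells, and 9.35 in KI and 2.28 in Ctrl-KI cells. Kept endothelial markers were higher in 6 of 6, 4 of 4 and 1 of 1 cases, while Tie1 was listed at 0 in male WT and Ctrl-KI cells and Emcn in Ctrl-KI cells. A marker under 1 FPKM in the control was kept only if the mutant column reached 1 FPKM. Among 6 immune markers Lyz2, a lysozyme of macrophages and granulocytes, was 30.96 FPKM in KI and 0.282 in Ctrl-KI cells, with intervals apart (log2 ratio 4.64). Lyz2 was 7.94 FPKM in male KO and 0.681 in male WT cells (2.41), and Csf1r, the macrophage growth factor receptor, was 2.58 in female KO and 0.477 in female WT cells (1.28). Ptprc, which marks all leukocytes, was 0.224 FPKM in KI and 0.0034 in Ctrl-KI cells with intervals apart, and lower than that KI value in the other columns. Itgam, also on the immune list, went the other way in every table, at 0.338 FPKM in female KO and 0.451 in female WT cells. It was 0.149 in male KO and 0.700 in male WT cells, and 0.331 in KI and 0.689 in Ctrl-KI cells, with the KI intervals apart. The immune list summed to 15.4 FPKM in female KO and 8.54 in female WT cells; in the other tables Cd68 is merged with Eif4a1 and Senp3, and that locus makes up most of the sums of 494 FPKM in male KO, 392 in male WT, 386 in KI and 357 in Ctrl-KI cells. The merged Cd68 locus was 354 FPKM in KI and 356 in Ctrl-KI cells. The part of such cells in the SWI/SNF values was not tested, and fewer muscle cells and less RNA per muscle cell cannot be told apart in bulk RNA.

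The promoters of the 3 BAF60 genes are shown because the genes fill the same position but differ in level. Smarcd3 is the highest in each column, but its interval overlaps that of Smarcd2 in female and male KO cells and that of Smarcd1 in male KO cells. Sequences are RefSeq promoters of GRCm38.p6 (250 bases before to 50 after the annotated start, 5′ to 3′), with every E-box, CANNTG, in capitals, the letters bound by MyoD and its relatives. The pattern CANNTG reads the same on both strands, though the middle letters of a match may differ, and 72.3% of 32851 promoters of this length hold at least 1. Smarcd3 is at chr5:24601953-24602252 (minus strand), Smarcd1 at chr15:99702037-99702336 (plus strand) and Smarcd2 at chr11:106267583-106267882 (minus strand).
Smarcd3: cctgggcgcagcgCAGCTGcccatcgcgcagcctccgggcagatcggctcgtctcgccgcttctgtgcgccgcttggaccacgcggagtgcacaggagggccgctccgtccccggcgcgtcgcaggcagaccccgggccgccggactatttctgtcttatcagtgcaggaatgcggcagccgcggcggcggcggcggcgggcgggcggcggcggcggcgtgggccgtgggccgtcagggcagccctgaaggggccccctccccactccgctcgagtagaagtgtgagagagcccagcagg
Smarcd1: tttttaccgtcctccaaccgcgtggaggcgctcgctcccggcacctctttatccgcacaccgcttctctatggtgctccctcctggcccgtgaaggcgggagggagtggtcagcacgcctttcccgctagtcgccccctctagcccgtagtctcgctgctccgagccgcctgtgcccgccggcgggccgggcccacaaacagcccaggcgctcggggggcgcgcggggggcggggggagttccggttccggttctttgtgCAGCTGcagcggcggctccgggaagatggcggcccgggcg
Smarcd2: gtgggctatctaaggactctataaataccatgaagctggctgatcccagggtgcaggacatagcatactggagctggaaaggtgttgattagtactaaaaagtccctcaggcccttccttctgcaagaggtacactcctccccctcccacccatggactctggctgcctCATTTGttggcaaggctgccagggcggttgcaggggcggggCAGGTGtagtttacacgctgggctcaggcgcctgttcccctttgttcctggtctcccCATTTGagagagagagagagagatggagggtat
Smarcd3 held 1 E-box, 237 bases before the start, and Smarcd1 held 1, 11 bases after it. Both read CAGCTG, a form that 16.3% of all promoters of this length hold. Smarcd2 held 3, of which 1 read CAGGTG; that form, counted with its reverse complement CACCTG, is in 20.2% of all promoters. Of the other 7 members, Smarca2, Smarca4 and Smarcc1 held 1 E-box each and Smarcb1, Smarcc2, Arid1a and Arid1b held 0. A match is a description of the letters in this window. The window of Smarcd3 was 74.7% G or C, that of Smarcd1 71.3% and that of Smarcd2 55.0%, against a median of 52.7% over all promoters.

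The other BAF60 genes lay at lower levels than Smarcd3, and their ratios differed in sign between the tables. Smarcd1, the widely expressed BAF60a, was 9.93 FPKM in female KO and 12.7 in female WT cells, and 10.1 in male KO and 7.19 in male WT cells. In the KI table its locus is merged with the ion channel gene Accn2 and read 7.98 FPKM in KI and 7.27 in Ctrl-KI cells, so that value is not of Smarcd1 alone. Its KO value lay below WT in females and above it in males, with log2 ratios of -0.33 and 0.44 and, for the merged locus, 0.12 in the KI table. Smarcd2 (BAF60b), known for its role in granulocyte development, was 19.6 FPKM in female KO and 21.9 in female WT cells, 17.1 in male KO and 10.97 in male WT cells, and 14.3 in KI and 12.1 in Ctrl-KI cells. The log2 ratios of Smarcd2 were -0.15, 0.60 and 0.23, so its value in male KO cells was the highest ratio of any member in any table.

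Because FPKM is scaled by length, paralogues can be set side by side within a column. Smarcd3 made up 53.8% of the summed FPKM of the 3 BAF60 genes in female KO cells, against 68.9% in female WT cells. In males its share was 69.7% in KO and 83.1% in WT cells, and in the KI table it was 76.5% in KI and 83.4% in Ctrl-KI cells. Each mutant column thus had a smaller Smarcd3 share than its control, by construction of the same values that gave the ratios. The summed FPKM of Smarcd1 and Smarcd2 was 29.5 in female KO and 34.7 in female WT cells, 27.2 in male KO and 18.2 in male WT cells, and 22.3 in KI and 19.4 in Ctrl-KI cells. In females both parts of the share were lower in KO, whereas in males and in the KI table the level of Smarcd3 was lower and that of its paralogues higher in the mutant. The sums and shares of the KI table include the Smarcd1 locus merged with Accn2. With TPM over all loci the log2 ratios of Smarcd1 and Smarcd2 were -0.24 and -0.13 in males and -0.59 and -0.53 in KI cells. With Smarcd3 at its lower bound and the others at their upper bounds, or the reverse, the KI share spanned 67.5% to 83.3% and the Ctrl-KI share 76.6% to 88.4%. These ranges overlapped, as did the wider ones of the KO tables.

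**Figure D2:**
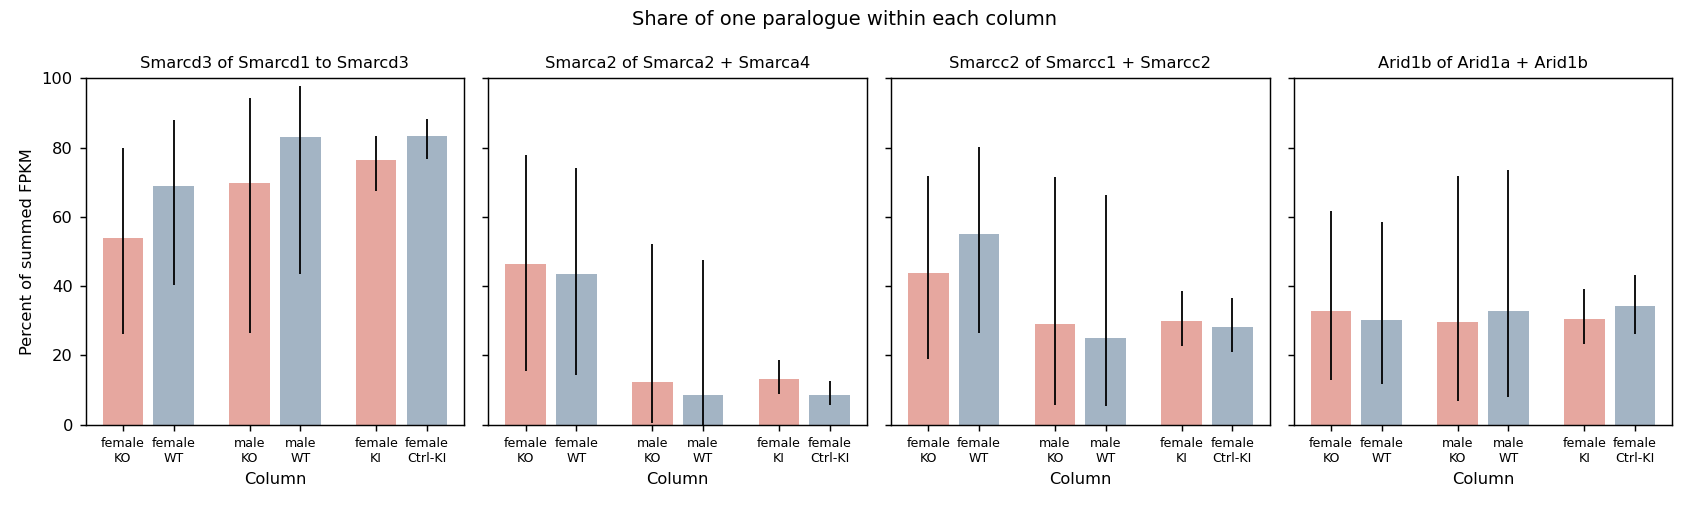
Share of 1 paralogue in the summed FPKM of its group (percent) for the BAF60, ATPase, SMARCC and ARID1 genes in the 6 columns, mutant columns in red left of their controls in blue. Bars are shares from the deposited FPKM and lines run between the lowest and highest share that the deposited bounds allow. Smarcd3 makes up 53.8% to 83.4% of the BAF60 sum and is the smaller share in each mutant column, with overlapping lines. In KI and Ctrl-KI cells that sum includes the Smarcd1 locus merged with Accn2.

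The ATPases showed a different balance. Smarca4, the ATPase that myogenic genes are known to need, was 20.6 FPKM in both female KO and female WT cells, 46.8 in male KO and 50.2 in male WT cells, and 40.1 in KI and 44.0 in Ctrl-KI cells. Its log2 ratios were 0.0022, -0.10 and -0.13, all within the middle of the distribution over all genes, where 56.9%, 43.5% and 31.1% of genes had a lower ratio. Smarca2, the alternative ATPase, known to be higher in non-dividing cells, was 17.9 FPKM in female KO and 15.9 in female WT cells. In males it was 6.57 FPKM in KO cells (interval 0.338 to 12.8) and 4.71 in WT cells (0 to 9.54). Smarca2 was 6.04 FPKM in KI cells (4.61 to 7.47) and 4.10 in Ctrl-KI cells (3.11 to 5.08). It was the 1 member above control in all 3 tables, as were 18.3% of all genes, with log2 ratios of 0.17, 0.41 and 0.47, but it lay below control in the male and KI tables when values were rescaled to TPM over all loci. Between KI and Ctrl-KI cells, 90.8% of all genes had a lower ratio than Smarca2, and its intervals overlapped by a small stretch.

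The share of Smarca2 in the ATPase sum was 46.5% in female KO and 43.5% in female WT cells. It was 12.3% in male KO and 8.58% in male WT cells, and 13.1% in KI and 8.51% in Ctrl-KI cells. Between the mutant and the control of a table the share differed by a few percentage points, while both columns of the female KO table lay well above the other 4 columns. The tables were estimated separately and hold different libraries, so this difference between tables was not tested. The fibro-adipogenic markers summed to 567 FPKM in female KO and 235 in female WT cells, and to 93.8 in male KO and 19.1 in male WT cells. Their sum was 314 in KI and 9.998 in Ctrl-KI cells, and its relation to the Smarca2 share was not tested.

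The core subunits varied little in the male and KI tables. Smarcb1 (SNF5), a core subunit, was 19.0 FPKM in female KO and 22.6 in female WT cells. It was 36.7 in male KO and 33.4 in male WT cells, and 33.5 in KI and 32.3 in Ctrl-KI cells. Smarcc1 (BAF155), a scaffold subunit, was 26.5 FPKM in female KO and 25.4 in female WT cells, 51.5 in male KO and 52.2 in male WT cells, and 40.9 in KI and 44.9 in Ctrl-KI cells. Smarcc1 had log2 ratios of 0.06, -0.02 and -0.13. Its paralogue Smarcc2 (BAF170) was 20.6 FPKM in female KO cells (9.52 to 31.7) and 31.1 in female WT cells (13.9 to 48.3), 21.2 in male KO and 17.4 in male WT cells, and 17.6 in KI and 17.5 in Ctrl-KI cells. After Smarcd3, Smarcc2 had the lowest member ratio in females at -0.57, where 16.3% of all genes were lower, but it was 0.27 in males and 0.0022 in the KI table. The Smarcc2 share of the SMARCC sum was accordingly 43.7% in female KO and 55.1% in female WT cells, 29.1% in male KO and 25.0% in male WT cells, and 30.1% in KI and 28.1% in Ctrl-KI cells.

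Arid1a and Arid1b, the subunits that define the canonical BAF form, kept a similar balance in all columns. Arid1a was 19.2 FPKM in female KO and 20.7 in female WT cells, 23.4 in male KO and 26.4 in male WT cells, and 29.3 in KI and 27.1 in Ctrl-KI cells. Arid1b was 9.39 FPKM in female KO and 8.95 in female WT cells, 9.81 in male KO and 12.9 in male WT cells, and 12.9 in KI and 14.1 in Ctrl-KI cells. Arid1b had the lowest male ratio after Smarcd3, at -0.36, where 23.5% of all genes were lower. Its share of the ARID1 sum stayed between 29.5% (male KO) and 34.2% (Ctrl-KI).

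**Figure D3:**
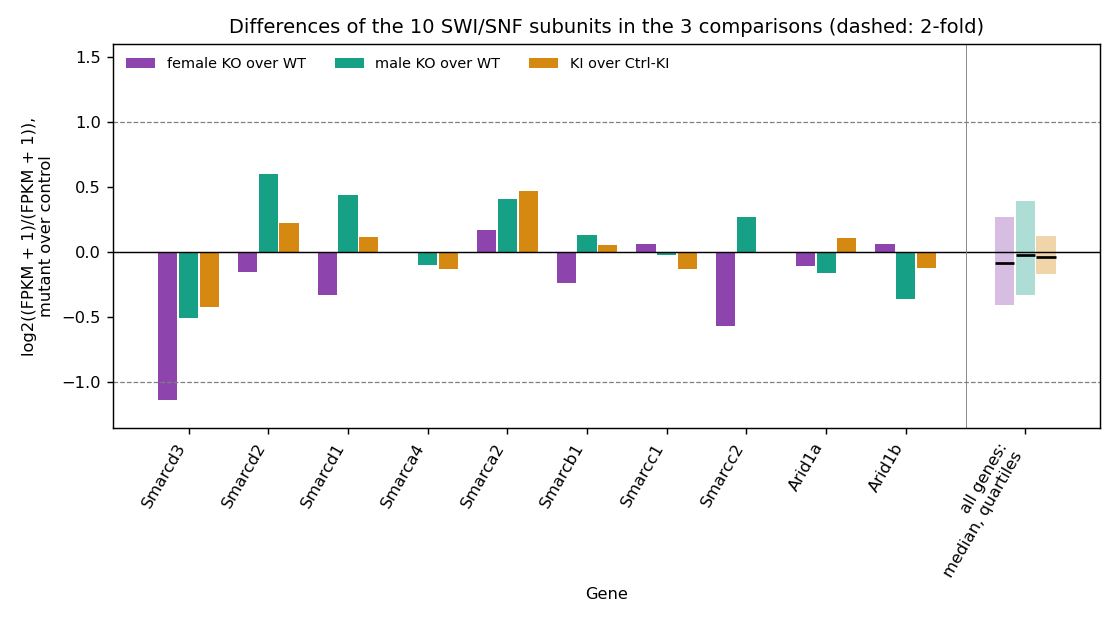
Log2 ratio of mutant over control FPKM, each with 1 FPKM added, for the 10 genes in the female KO, male KO and KI comparisons (bars), beside the median (black line) and quartiles (pale box) of all genes kept. Smarcd3 is the lowest member in each comparison, at -1.14, -0.51 and -0.42, and the only bar past 2-fold is its female value; the KI bar of Smarcd1 is the locus merged with Accn2.

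Across the 10 members the median log2 ratio was -0.13 in females, 0.06 in males and 0.03 in the KI table, beside -0.08, -0.02 and -0.04 over all genes. Without Smarcd3 the other 9 spanned -0.57 to 0.17, -0.36 to 0.60 and -0.13 to 0.47. Female and male ratios had the same sign for 3 of 10 members, Smarcd3 and Arid1a below control and Smarca2 above it, where 66.5% of 10482 genes kept in both had the same sign. With TPM over loci with a symbol it was the same for 5 of 10 members, Arid1a no longer among them and Smarca4, Smarcc1 and Smarcd2 added, against 66.0% of genes. Over the 10 genes, which share their libraries, Pearson's r between the 2 sexes was 0.30 and Spearman's rho -0.03, and without Smarcd3 r was -0.36. The male and KI ratios depend on the scaling more than the female ones. Of the total FPKM, 86.1% in male KO, 72.8% in male WT, 77.6% in KI and 57.1% in Ctrl-KI cells lay in loci that carry no symbol. The female table holds 0 such loci, so TPM over all loci and over loci with a symbol are the same there. The joint fit with TPM over all loci therefore sets unlike scales of the sexes side by side. With TPM computed over every locus the ratio of the median gene kept shifted by -0.68 in males and -0.75 in KI cells, and all 10 members then lay below control in both. With TPM computed over named loci alone the median shift of a gene was 0.17 in females, 0.16 in males and 0.10 in KI cells, and 6 of 10 members then lay above control in females and 7 of 10 in males. The shift was not the same for every gene, so that neighbours such as Smarcd1 and Smarca2 in males changed places with TPM over all loci, but Smarcd3 stayed the lowest of the 10 under each scaling tried, in each table.

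Within a column, the order of the members was resolved only in part. In Ctrl-KI cells the interval of Smarcd3 lay above those of all 9 other members, as it did in KI cells. Smarcc1, Smarca4, Smarcb1 and Arid1a followed in that order in both KI columns, at 44.9 to 27.1 FPKM in Ctrl-KI cells, and neighbours among these 4 had overlapping intervals. Smarcc2, Smarcd2 and Arid1b came next, below a gap between intervals, and Smarcd1 (merged) and Smarca2 closed the order. The male columns had the same first 5 genes in the same order, but only 2 of 9 intervals lay below that of Smarcd3 in KO and 4 of 9 in WT cells. In females Smarcd3 was followed by Smarcc1 in KO and by Smarcc2 in WT cells, and its interval was above those of 2 and 7 of the other 9.

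Positions are mm9, as the submitters' processing notes name that build. Smarcd3 lay on chromosome 5 from 24098440 to 24107820 in the KO tables. In the KI table its locus reached 7025 bases further at the lower coordinate, to 24091415, with the same upper coordinate. Smarcd3 is on the minus strand, so the lower coordinate is the side where its transcripts end. The extent of the transcripts assigned to Smarcd3 therefore differed between the tables, so its FPKM in the KI table need not cover the same transcripts. Smarcb1 (chromosome 10, also minus strand) likewise reached 6700 bases further at its lower coordinate in the KI table than in the female table.

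Genes with the ratios most like those of Smarcd3 were sought among 7066 genes with their own locus and at least 5 FPKM in 1 column of each table. By Euclidean distance over the 3 log2 ratios the 5 nearest were Trappc2l, 1700021C14Rik, 2010107H07Rik, Neil1 and Suclg1. Trappc2l, a member of a vesicle-tethering complex, was nearest at a distance of 0.07, with 11.7 FPKM in female KO and 28.2 in female WT cells. Suclg1, a subunit of the mitochondrial succinyl-CoA ligase, was the last of these 5 at 0.15, with log2 ratios of -1.12, -0.65 and -0.40. Another 63 of the 7066 genes lay at or below Smarcd3 in all 3 tables. The likeness rests on 3 numbers for each gene.

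Of the other 21 subunits listed for BAF, PBAF and the noncanonical form, 17 were kept in each table with a median log2 ratio of -0.12 in females, -0.12 in males and -0.0061 in KI cells. Among females 0 of 17 passed 2-fold, where 4.49% of all genes were higher and 4.40% lower. Between KI and Ctrl-KI 0 of 17 passed, where 3.86% of all genes were higher and 0.893% lower. In males 1 was 2-fold higher, Actb, and 1 was 2-fold lower, the locus of Phf10, beside 9.90% and 6.47% of all genes. Phf10, a subunit of PBAF, was 60.1 FPKM in female KO and 65.3 in female WT cells. In the male table its locus is merged with LOC106740 and read 40.6 FPKM in KO and 118 in WT cells, log2 ratio -1.51, which cannot be assigned to Phf10. The merged locus was 73.2 FPKM in KI and 68.3 in Ctrl-KI cells. Actb encodes beta-actin, a subunit of the complex but above all of the cytoskeleton. It was 319 FPKM in female KO and 324 in female WT cells, 1550 in male KO and 542 in male WT cells, and 924 in KI and 516 in Ctrl-KI cells. The KI pair of Actb was the 1 of 51 comparisons of these subunits with intervals apart. Over all genes intervals were apart for 0.899% among females, 0.865% among males and 12.0% between KI and Ctrl-KI.

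Dpf3 (BAF45c), which is known to bind acetylated and methylated histones at heart and skeletal muscle genes, was low throughout. It was 1.07 FPKM in female KO and 2.61 in female WT cells, 0.444 in male KO and 1.58 in male WT cells, and 1.57 in KI and 1.17 in Ctrl-KI cells. With log2 ratios of -0.80, -0.84 and 0.25 it lay below WT in both sexes but above control in the KI table (limma over both sexes -0.82 ± 0.26, n = 2, adjusted p = 0.181). Dpf1, its neuronal paralogue, was 4.14 FPKM in female KO and 1.74 in female WT cells, 1.67 in male KO and 1.20 in male WT cells, and 2.10 in KI and 2.26 in Ctrl-KI cells. Dpf2, the widely expressed paralogue, was 57.9 FPKM in female KO and 75.02 in female WT cells and 32.4 in male KO and 46.6 in male WT cells. In the KI table Dpf2 is merged with Tigd3, at 49.7 FPKM in KI and 49.9 in Ctrl-KI cells.

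Bcl7a, a small BAF subunit, lay below control in all 3 tables. It was 13.9 FPKM in female KO and 21.2 in female WT cells, 11.7 in male KO and 19.9 in male WT cells, and 20.3 in KI and 28.1 in Ctrl-KI cells. Its log2 ratios were -0.58, -0.71 and -0.45 (limma over both sexes -0.64 ± 0.23, n = 2, adjusted p = 0.208). Brd7, Brd9, Dpf2 (merged in the KI table) and Pbrm1 were the other 4 of 17 below control in each table, by small amounts for Brd9 and Pbrm1, and Ss18 was the 1 above control in each. The 5 of 17 below control in each table stand beside 31.1% of all genes as deposited. Of all genes, 15.5% lay below control in each table with TPM over loci with a symbol, and 45.1% with TPM over all loci. With TPM over all loci the male and KI ratios of every one of these genes shift down as given above. With TPM over loci with a symbol the median shift of a gene was upward, by 0.17 in females, 0.16 in males and 0.10 in KI cells. These shifts are larger than the differences of Brd9 and Pbrm1, so Brd9 and Pbrm1 need not stay below control. Ss18l1, the neuronal paralogue of Ss18, is merged with Gtpbp5 in the KI table. Bcl11a, Bcl11b and the neuronal Actl6b were under 1 FPKM in every column, and Gltscr1l was not analysed here.

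**Figure D4:**
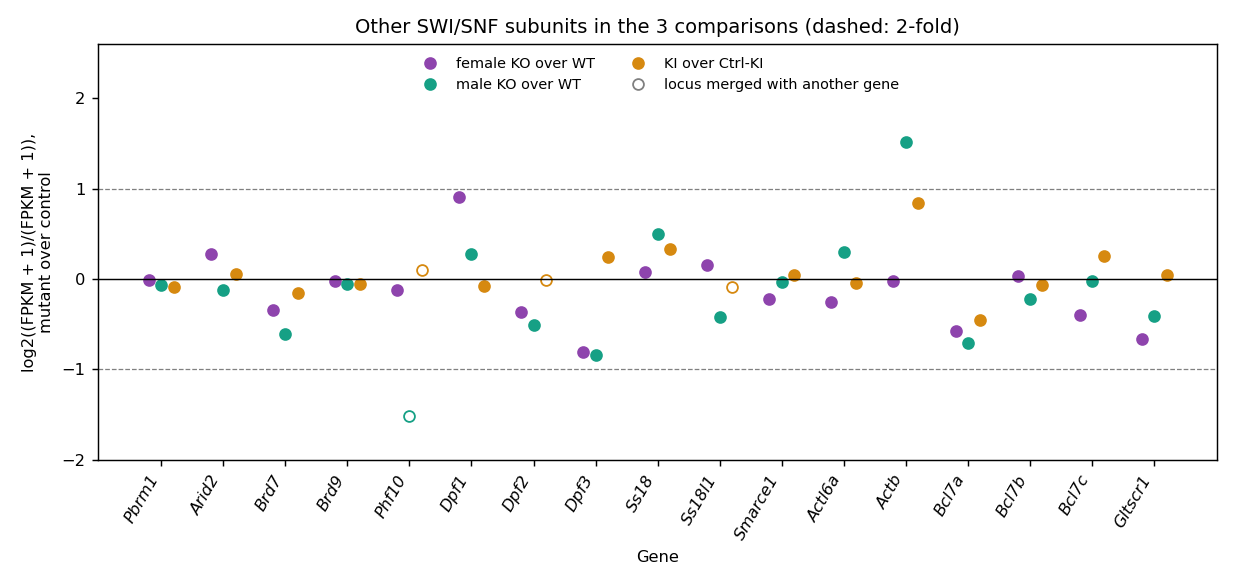
Log2 ratio of mutant over control FPKM, each with 1 FPKM added, for the 17 other SWI/SNF subunits kept, in the female KO, male KO and KI comparisons. Open circles are loci merged with another gene, dashed lines mark 2-fold, and the points past 2-fold are Actb (1.51) and the merged Phf10 locus (-1.51), both in males.

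Remodeller ATPases outside SWI/SNF served as a comparison. Of 18 listed, 16, 13 and 15 were kept, with a median of 0.16 in females, -0.07 in males and 0.04 in KI cells. Hells, a remodeller of dividing cells, was the 1 gene of that list past 2-fold, at 7.38 FPKM in male KO and 1.11 in male WT cells (log2 ratio 1.99). Among males 9.90% of all genes were at least 2-fold higher. Hells was 1.998 FPKM in female KO and 1.40 in female WT cells. Chd5 had the highest ratio in females, at 0.71 and 2.88 FPKM in KO against 1.37 in WT cells, and Chd4, the NuRD ATPase, the lowest, at -0.21. In males Chd7 had the lowest ratio, -0.92, at 6.50 FPKM in KO and 13.2 in WT cells. Chd3 (0.47) and Chd6 (-0.21) were the extremes between KI and Ctrl-KI. Chd2 is merged with 1810026B05Rik in all tables, Chd8 with Supt16h in the male and KI tables and Chd4 with Nop2 in the KI table.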

How the data were processed

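The authors deposited FPKM for each column, per the file headers, beside its lower bound, upper bound and status. The sources used here give neither the scaling between libraries nor the confidence level of the bounds. The submitters' processing notes name bedtools 2.16.2, Bowtie2 2.2.4, Cuffdiff, Cufflinks 2.2.1, edgeR, HTSeq 0.6.1 and TopHat2 2.0.12, without roles, and build mm9. Read depth is unknown, and paralogue and overlapping-gene values may share fragments. Libraries were grouped by title. Whether they come from separate animals is not stated.

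Loci with a symbol, status OK in both columns and at least 1 FPKM in 1 column were kept, and starts are printed 1 higher than in the files. Ratios, with a pseudocount of 1 FPKM that understates changes of low genes, were formed within a table and called at 2-fold. There is no test with 1 column per group. Female and male ratios were fitted jointly in limma 3.58.1 under R 4.3.3, allowing the variance to follow mean expression, in code tested on simulated data. There the fit recovered 6 of 66 genes with a true log2 change of 1 and 66 of 66 with one of 3, with 13 false calls. A gene with a change near 1 can therefore miss the threshold. With the deposited ratios 0 of 10482 genes passed it. Those missing it include Ckm (-2.81 in females, -3.83 in males) and Tnnc2 (-2.56 and -3.44). Whether the recovery at 3 holds for the deposited ratios was not tested. Limma p-values were adjusted over all genes by Benjamini-Hochberg. Python 3.11.15 and pandas 2.3.3 were used otherwise. Named are all members, Kdm6a, other subunits and remodeller ATPases that were 2-fold changed, merged or extreme in a table, and the 5 genes nearest to Smarcd3; further subunits named were chosen after their values were seen. Members and lists were chosen with earlier results of these data known. RefSeq promoters (GRCm38.p6) matched all 10 members by symbol.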

Additional observations from a re-analysis of the deposited data

Results flagged for a closer look

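Results are given here where the single female and the single male library pair lay on opposite sides of 0, which was so for 7 of the 10 members and for 4 of the 15 other subunits and remodeller ATPases that the naming rule picked. The same sign in both sexes was found for 66.5% of all genes kept in both. The count depends on scaling, since with TPM over loci with a symbol 5 of 10 members had the same sign, and with TPM over all loci every male member ratio was negative. The difference between the sexes was not tested, since each sex has 1 library per group. Values are the male log2 ratio minus the female one. Smarcc2 differed by 0.84 (0.27 in males, -0.57 in females), Smarcd1 by 0.77 (0.44 and -0.33) and Smarcd2 by 0.75 (0.60 and -0.15). Arid1b differed by -0.42 (-0.36 in males, 0.06 in females) and Smarcb1 by 0.37 (0.13 and -0.24). Smarca4 differed by -0.10 (-0.10 and 0.0022) and Smarcc1 by -0.08002 (-0.02 and 0.06). Outside the members, Actb differed by 1.54 (1.51 in males, -0.03 in females), Chd2 (merged) by -0.82 (-0.24 and 0.58), Ss18l1 by -0.57 (-0.42 and 0.15) and Chd6 by -0.43 (-0.0022 and 0.43).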

How the results depend on the processing

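Of the member counts, 5 changed with the processing. The 1 member at least 2-fold lower in female KO, Smarcd3, became 0 with TPM over loci with a symbol, 0 with TPM over all loci and 0 when non-overlapping intervals were required. Both TPM settings are the same calculation in females, where every locus carries a symbol. The 0 lower members in male KO and the 0 in KI became 1 and 1, again Smarcd3, with TPM over all loci. The other 55 recomputed counts were equal to the first ones. The joint limma count of members was 0 in each of 10 alternatives, while over all genes it was 0 as first fitted, 130 with a minimum of 5 FPKM, 145 with TPM over all loci, 1 with a pseudocount of 0.1 and 1 with TPM over loci with a symbol. Members with the same sign in both sexes numbered 3 as deposited, 4 with median-centred ratios, 5 with TPM over loci with a symbol and 4 with TPM over all loci, a count added after seeing the data. Among recomputed member ratios 259 stayed within the range the deposited bounds allow. The other 10 were the KI ratios with TPM over all loci, between -1.24 (Smarcd3) and -0.21 (Smarca2). The ranges of the male table are wide, -2.98 to 3.79 for Smarca2, so a male ratio could hardly leave them. With TPM over all loci, 5 of the 10 male member ratios changed sign while within range, beside 6 of 10 in KI cells. In the joint fit 9 member averages changed sign under a rescaling, none past the threshold before or after. Shares recomputed from the deposited bounds lie within the printed ranges by construction; those ranges were added after seeing the data. Calls over all genes moved more. In males, 2-fold higher and lower genes numbered 1132 and 740 as deposited, 443 and 475 with a pseudocount of 5, 1799 and 715 with TPM over loci with a symbol, and 253 and 2521 with TPM over all loci, and the share of higher calls was 60.5% as deposited, 48.3% with a pseudocount of 5, 71.6% with TPM over loci with a symbol and 9.12% with TPM over all loci. In females 554 genes were higher and 543 lower as deposited, 938 higher and 809 lower with a pseudocount of 0.1 and 196 higher and 246 lower with one of 5. The share of higher calls in females was 50.5% as deposited, 63.2% with median-centred ratios and 73.7% with TPM over loci with a symbol (1197 higher and 427 lower). The KI counts were 428 and 99 as deposited, 602 and 168 with a pseudocount of 0.1, 177 and 47 with a pseudocount of 5, 262 and 82 with a minimum of 5 FPKM, 679 and 107 with TPM over loci with a symbol, and 196 and 1683 with TPM over all loci, the share of higher calls being 81.2% as deposited and 10.4% with TPM over all loci. No paired analysis was possible because the KI and Ctrl-KI replicates are given as 1 column each. Leaving out a sex leaves 1 ratio and no test. Unknown depth and intervals of 139% to 203% of the FPKM of members in the male table limit what a male difference can show.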
